A study of Homo sapiens with 4 samples.

Results

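Pseudogene transcripts were the transcripts whose annotation class held the word pseudogene in the 2 deposited tables of beta-catenin RNA immunoprecipitation (RIP) against input. They numbered 319 of 9880 listed transcripts in HT-29 and, in CaCo-2, 378 of 11943. Each name occurred once within a line, and 660 names occurred over both lines. Of these names, 391 (59.2%) were clone-based and show no parent gene, and a parent could be read from 256. Transcripts spanning under 200 nucleotides, 19 and 30 in the respective lines, are described apart, which leaves 300 and 348.

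HT-29 and CaCo-2 are untreated human colon adenocarcinoma lines. For each line there was 1 library of RNA captured from nuclear lysate by an antibody to beta-catenin on magnetic beads, and 1 input library made without antibody. The series set out to identify long non-coding RNAs that bind beta-catenin. With 4 libraries and 1 per group, no value has a replicate error and no difference between RIP and input was tested here. No control antibody was part of the values analysed here.

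A pseudogene is a copy of a gene that has lost the ability to make the gene's product. A processed pseudogene arises when an mRNA is copied back into DNA and inserted elsewhere, so it lacks the parent's introns and promoter. Abundant housekeeping mRNAs, such as those of ribosomal proteins and translation factors, have left many such copies in the human genome. An unprocessed pseudogene arises by duplication of the gene itself and keeps the exon structure. Beta-catenin is the transcriptional co-activator of Wnt signalling and is often stabilised in colon cancer.

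Processed pseudogenes made up most members, 266 in HT-29 and 310 in CaCo-2. The less defined class called pseudogene held 19 and 28, unprocessed pseudogenes 14 and 19, and transcribed processed pseudogenes 11 and 9. Transcribed unprocessed pseudogenes numbered 8 and 10, and unitary pseudogenes, which have no working gene left in the genome, 1 and 2. The deposited tables hold only transcripts at least 1.5-fold higher in the RIP, so each ratio is above 1 by selection. A short or near-identical copy can also share reads with its parent, and the strandedness of the libraries is not given in the sources used here. The part of such shared reads in the values below was not tested.

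Sequence at the start site could be shown for 1 of the 660 names. NUDT4P1, a copy of the gene for a Nudix hydrolase that cleaves diphosphoinositol polyphosphates, had the highest RIP level of the CaCo-2 pseudogenes without a clone name. RefSeq now lists that name as a synonym of NUDT4B, which it annotates as protein-coding. The windows below are from RefSeq on GRCh38.p14, at chr12:93377895-93377954 for NUDT4 and chr1:148748525-148748584 for NUDT4B, both on the plus strand. Capitals mark the 30 bases from the parent's annotated start and the bases of the copy aligned to them.
NUDT4: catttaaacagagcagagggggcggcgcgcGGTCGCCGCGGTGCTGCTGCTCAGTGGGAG
NUDT4B: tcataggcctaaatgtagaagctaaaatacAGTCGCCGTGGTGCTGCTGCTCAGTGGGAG
Within the capitals 28 of 30 bases match, and within the 30 bases before them 7 match. Likeness thus begins at the parent's start of transcription, which is the usual boundary of a processed copy. In CaCo-2, NUDT4P1 (hg19 chr1:145139025-145139569) was listed at 0.00171 FPKM in input and 20.1 FPKM in the RIP, with a q of 1 in the authors' deposited table. FPKM is a fragment number divided by the transcript's length and the depth of the library. In the CaCo-2 input 1 fragment on 500 nucleotides is worth 0.238 FPKM, as estimated below. At a length near its span, the input value of NUDT4P1 is thus a small fraction of 1 fragment. For the parent NUDT4, the listed transcript had 0 FPKM in input and 1 FPKM in the RIP. This was below the RIP level of the copy. Any NUDT4 transcript not selected as higher in the RIP is missing from the listed values, so copy and gene cannot be ranked.

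Levels of the pseudogenes were mostly low in both lines, and a large share had no signal in input. Ratios are log2 of (RIP + 1) over (input + 1), in FPKM, and 2-fold means a log2 ratio of at least 1 on this measure. A fold given for a single transcript is RIP over input without the added 1 FPKM. At low levels such a fold can exceed 2 for a transcript not counted at 2-fold. Transcripts below 1 FPKM in both libraries of a line were left out. In HT-29, 194 of 300 pseudogenes (64.7%, 95% Wilson interval 59.1 to 69.9) reached 2-fold in this sense, beside 56% of all listed transcripts. The share was 53.2% for protein-coding transcripts and 45.0% for lncRNAs. In CaCo-2, 102 of 282 (36.2%, 30.8 to 41.9) reached 2-fold, beside 40.8% of all listed transcripts, 42.0% of protein-coding transcripts and 30.9% of lncRNAs. Median log2 ratios were 1.34 in HT-29 and 0.74 in CaCo-2, against 1.14 and 0.82 over all listed transcripts. These intervals cover counting error only.

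Transcripts with input at 0 set much of these shares. Input was listed at 0 for 137 of the 300 pseudogenes in HT-29 (45.7%) and for 76 of the 282 in CaCo-2 (27.0%), against 31.8% and 26.5% of all listed transcripts. Any such transcript with at least 1 FPKM in the RIP reaches 2-fold by construction. The HT-29 table begins at 1.31 FPKM in the RIP and the CaCo-2 table at 0.842, so the shares of the lines are not directly comparable. Among pseudogenes with input above 0, 57 of 163 (35.0%) reached 2-fold in HT-29, beside 35.5% of all such transcripts, and 26 of 206 (12.6%) in CaCo-2, beside 19.5%. With at least 1 FPKM in both libraries the counts were 16 of 70 (22.9%) beside 25.2% in HT-29, and 6 of 58 (10.3%) beside 13.1% in CaCo-2. Under this last filter the Wilson intervals of the pseudogene shares, 14.6 to 33.95 and 4.83 to 20.8, hold the shares of all listed transcripts. With input above 0 the interval in HT-29, 28.1 to 42.6, holds the 35.5% of all. In CaCo-2 the interval, 8.76 to 17.9, lies below the 19.5% of all. All listed transcripts include the pseudogenes, the intervals treat transcripts as independent, and no difference between these shares was tested.

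**Figure D1:**
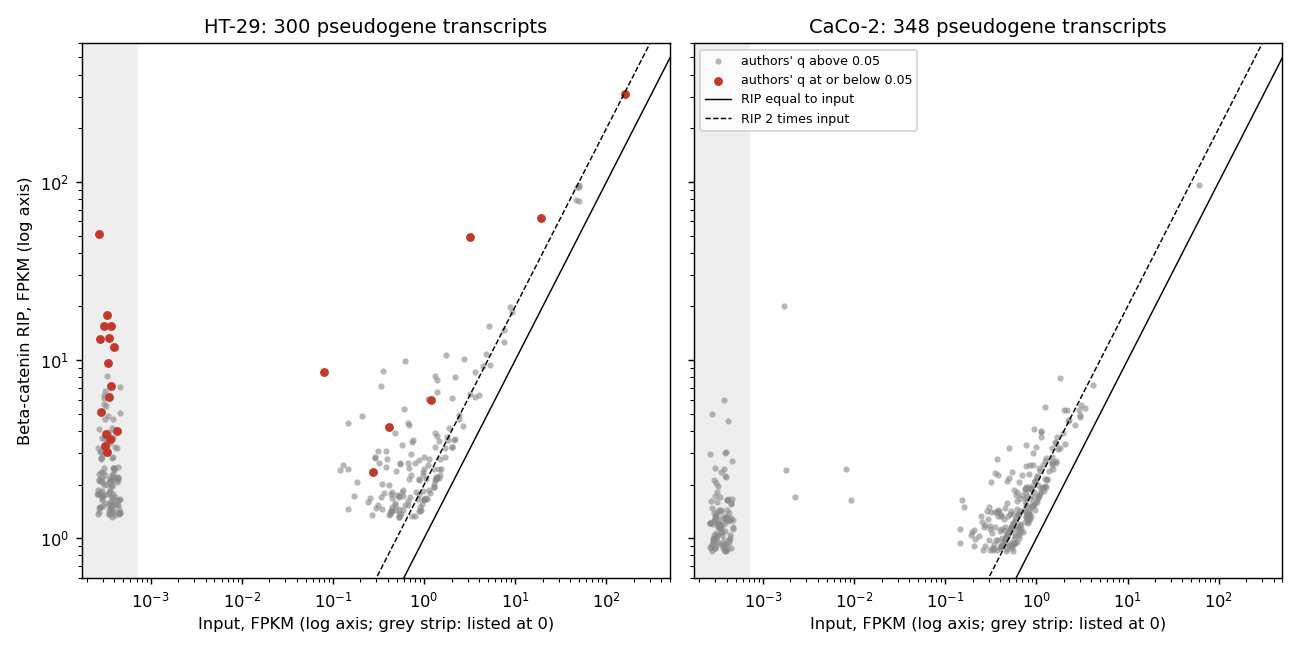
RIP level against input level, both in FPKM on log axes, for pseudogene transcripts spanning 200 nucleotides or more, 1 point per transcript and 1 panel per line. Points in the grey strip, spread at random along the axis, have input listed at 0, and red points are the 23 in HT-29 with a q at or below 0.05 in the authors' deposited table. All points lie above the line of equal level because the tables were selected so.

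**Figure D2:**
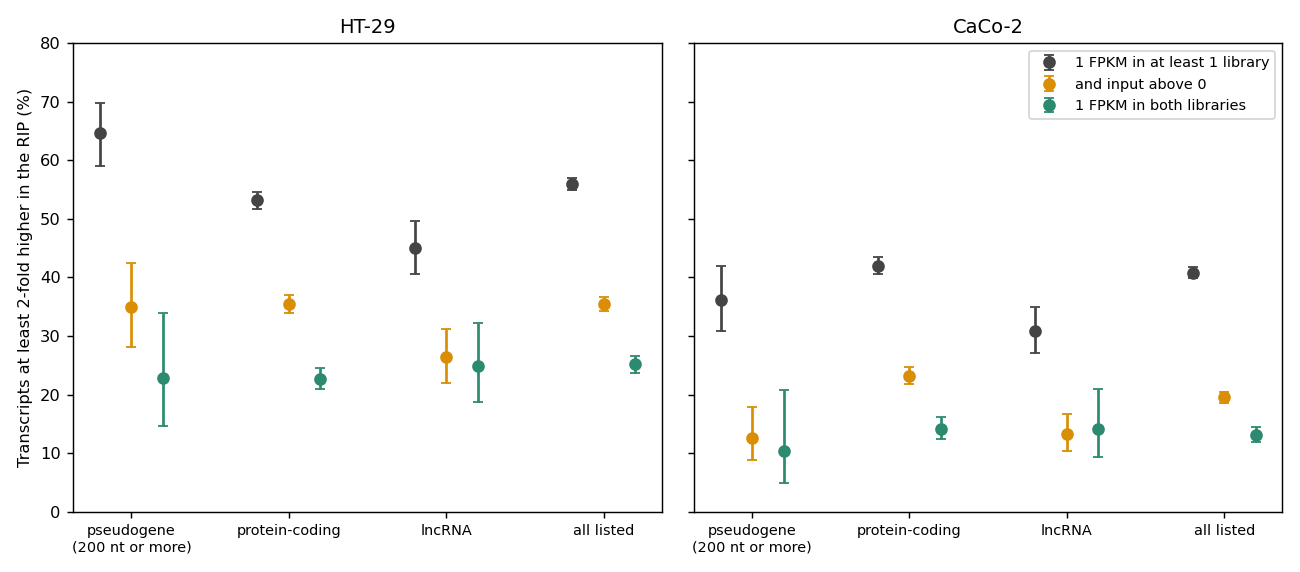
Share of transcripts at least 2-fold higher in the RIP, in percent, by class, line and filter, with 95% Wilson intervals for counting error. The 2-fold is taken after adding 1 FPKM to both sides. In HT-29 the pseudogene share falls from 64.7% to 35.0% when input listed at 0 is left out and to 22.9% with 1 FPKM in both libraries, as it does from 36.2% to 12.6% and 10.3% in CaCo-2.

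The low levels correspond to few sequenced fragments. For processed pseudogenes of like span, FPKM values were whole multiples of a common step, which gives the value of 1 fragment. This holds where the span is the transcript's length, as for a copy without introns. On spans left out of the fit, 92.1% of 89 low values came out whole within 0.05 fragment in the HT-29 RIP, 90.2% of 51 in its input, 94.1% of 101 in the CaCo-2 RIP and 85.2% of 88 in its input. At 500 nucleotides 1 fragment was worth 0.502 FPKM in the RIP library of HT-29 and 0.304 in its input, against 0.260 and 0.238 for CaCo-2. The HT-29 RIP was thus the library in which a single fragment gave the highest FPKM.

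Of 252 processed pseudogenes in HT-29, the median had 5 RIP fragments, with an interquartile range of 2 to 13. Those with 3 fragments or fewer numbered 102 (40.5%), and 59 of these were among the 165 at 2-fold. In CaCo-2 the median of 290 was 6 fragments (3 to 10), with 91 (31.4%) at 3 or fewer, 44 of them among the 79 at 2-fold. Among processed pseudogenes with at least 10 RIP fragments that passed the filter, 55 of 83 in HT-29 (66.3%) reached 2-fold. In CaCo-2 it was 8 of 68 (11.8%), with 81 before the filter. The cut is on the RIP side only, and the share of all listed transcripts at this cut was not taken. The lowest RIP level listed differs between the lines, so their shares are not directly comparable, and the difference was not tested.

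Where input was 0, a lower bound on the fold was taken against 3 input fragments, per library. It takes the RIP fragment number as exact, so counting error in the RIP is left out. Folds given as at least a value are such bounds and are less cautious than the counting intervals. Among processed pseudogenes at 2-fold with input 0, this lower bound was at least 2 for 59 of 112 in HT-29 and for 10 of 61 in CaCo-2. In CaCo-2, 5 processed pseudogenes, EEF1A1P13, CFL1P3, BTF3L4P1, AC002056.3 and RP11-651P23.4, had input values above 0 but below 0.5 fragment. All 5 were counted at 2-fold, and each has a q of 1 in the authors' deposited table. Their folds are not given, since such input values are fractions of 1 fragment. These 5 and NUDT4P1 are among the 26 of 206 that reached 2-fold in CaCo-2 with input above 0.

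**Figure D3:**
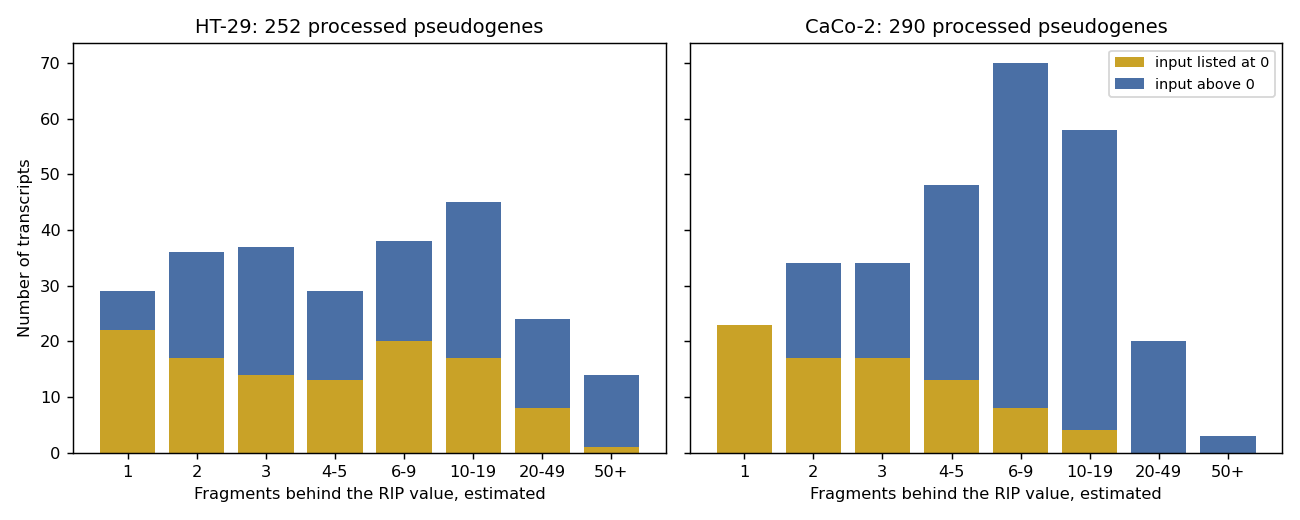
Number of processed pseudogenes spanning 200 nucleotides or more (vertical axis) by the estimated number of RIP fragments (horizontal axis), with input listed at 0 in yellow and above 0 in blue. In HT-29 input at 0 occurs up to the highest class, while in CaCo-2 it lies in the classes below 20 fragments.

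The authors' deposited table for HT-29 gives 23 of the 319 pseudogenes (7.21%) a q at or below 0.05, beside 3.08% of all listed transcripts. For CaCo-2 the authors' deposited table gives 0 of 378, beside 2.24% of all, and its lowest pseudogene q is 0.064, for SBDSP1. Of the 23, 16 had input at 0, 12 had names with a readable origin and 11 had clone-based names. The 21 processed ones rested on 13 to 495 RIP fragments, with a median of 25. The authors' q comes from 1 library per side, so it carries no spread between cultures. Copies of translation factors (3), of chaperones and cyclophilins (3) and of ribosomal proteins (2) are among them.

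The family counts below stand beside 56% of all listed HT-29 transcripts at 2-fold and 40.8% of those in CaCo-2, and no family was tested. EEF1A1 encodes the elongation factor that brings aminoacyl-tRNA to the ribosome, and its listed copies numbered 5 in HT-29 against 1 in CaCo-2. EEF1A1P17 (chr12:44053630-44054904) had 0 FPKM in input and 13.3 FPKM in the RIP, from 87 fragments. It was thus at least 48.7-fold higher, the largest bound of the pseudogenes, and its q in the authors' deposited table, 1.4e-08, is the lowest of the pseudogenes.

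EEF1A1P16 (chr12:17143604-17145017) had 0.0805 FPKM in input and 8.53 FPKM in the RIP. That is 63 fragments against 1, a fold of 106 with a counting interval of 18.4 to 4254. EEF1A1P29 (chrX:85415268-85416363) went from 0 to 3.99 FPKM, at least 12.3-fold. Both copies carry a q at or below 0.05 in the authors' deposited table. EEF1A1P13 (chr5:14652050-14653438) was at 2.18 and 8.01 FPKM, a fold of 3.68 (2.28 to 6.09), and EEF1A1P9 at 0.660 and 1.53, with a fold of 2.31 (0.848 to 6.63) whose interval includes 1.

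The parent EEF1A1 was listed as well. Its highest listed transcript was a processed transcript without a coding frame. This transcript had 29.1 FPKM in input and 190 FPKM in the RIP of HT-29, and 38.0 and 73.0 in CaCo-2. Its q in the authors' deposited table is above 0.05 in both lines. In HT-29 the log2 ratios of EEF1A1P17 (3.83) and EEF1A1P16 (3.14) were above that of the parent's transcript (2.66), and EEF1A1P29 (2.32) was below it. The 1 FPKM added to both sides lowers these ratios most at low levels. Without it, the bound for EEF1A1P29 is 12.3-fold, so this order does not rank copies and parent by fold. Of the other translation factors, EIF1AXP1, a copy of an initiation factor that helps find the start codon, had 9.11 FPKM in input and 18.6 FPKM in the RIP. In all, 8 of 11 translation-factor copies reached 2-fold in HT-29, 3 of them with input at 0 and with a family median log2 ratio of 1.48, and 2 of 4 in CaCo-2.

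Ribosomal protein copies formed the largest named family, with 40 transcripts of 33 parents in HT-29 and, in CaCo-2, 31 of 19 parents. In HT-29, 28 of 40 reached 2-fold, and in CaCo-2 6 of the 27 that passed the filter. Of those at 2-fold, 16 and 5 had input at 0. By subunit, large-subunit copies gave 20 of 26 in HT-29 and, in CaCo-2, 4 of 24. Small-subunit copies gave 8 of 12 and 2 of 3.

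RPS3AP6 (chr15:60060543-60061347), a copy of small-subunit protein S3A, had the highest RIP level of the ribosomal copies. It had 19.1 FPKM in input and 62.5 FPKM in the RIP of HT-29, or 121 and 237 fragments, a fold of 3.27 (2.62 to 4.10). The authors' deposited table gives it a q of 0.000754. RPS19P1 (chr20:18485277-18485710) had 0 FPKM in input and 15.6 FPKM in the RIP, from 25 fragments, and was at least 13.6-fold higher. The highest of 3 listed transcripts of its parent RPS19, whose loss causes an inherited anaemia, had 175 and 378 FPKM. This was far above the copy on this length-scaled measure.

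RPLP0P6, a copy of the acidic stalk protein P0, was at 8.68 FPKM in input and 19.97 FPKM in the RIP of HT-29, a fold of 2.30 (1.66 to 3.19). RPL24P8 was at 1.32 and 8.15 FPKM, from 4 and 15 fragments, with a fold of 6.16 (1.96 to 25.5). RPL21P41 was listed in both lines at input 0, with 8.10 FPKM in the HT-29 RIP but 0.845 in that of CaCo-2. In CaCo-2, RPS11P5 (chr12:133402287-133402772) had 11 RIP fragments against 0, which gives at least 4.01-fold. RPL13AP5, a copy of large-subunit protein L13a, was at 1.13 FPKM in input and 3.97 FPKM in the RIP of CaCo-2, and at 3.22 and 6.47 in HT-29. RPL32P3 was at 0 and 3.05 FPKM in CaCo-2. RPL7A had 4 copies listed in that line, the most of any parent there, with log2 ratios between 0.37 and 0.84, so none reached 2-fold.

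Chaperone and cyclophilin copies were at 2-fold for 7 of 9 in HT-29 (background 56%) and, in CaCo-2, 5 of 7 (40.8%). Of these, 5 in HT-29 and 3 in CaCo-2 had input at 0. HSP90AB3P (chr4:88812995-88815167), a copy of the cytosolic chaperone HSP90 beta, had 1.20 FPKM in input and 5.99 FPKM in the RIP of HT-29. From 24 and 71 fragments this is a fold of 4.99 (3.11 to 8.30). PPIAP13 (chr10:76849006-76849483), a copy of cyclophilin A, a prolyl isomerase, had 0 and 15.6 FPKM, at least 15.9-fold. The authors' deposited table gives q values of 0.000768 and 0.001 to these copies.

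In HT-29 the 1 listed transcript of each parent had a lower RIP level than the copy. HSP90AB1 was at 0 FPKM in input and 2.34 FPKM in the RIP, and PPIA, through a retained-intron transcript, at 0.220 and 1.71. Any transcript of these parents not selected as higher in the RIP is missing from the listed values, so copies and genes cannot be ranked. In CaCo-2, PPIAP22 had 1.80 FPKM in input and 7.89 FPKM in the RIP, with a q of 1 in the authors' deposited table. PTGES3P1, a copy of the HSP90 co-chaperone p23, was listed in both lines, at 1.10 and 6.08 FPKM in HT-29, against 0.497 and 3.21 in CaCo-2.

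Copies of genes for chromatin and nuclear proteins reached 2-fold for 12 of 16 in HT-29 (background 56%) and, in CaCo-2, 4 of 10, near the background of 40.8%. Input was at 0 for 9 of the 12 and for 1 of the 4. PTMAP2 (chr5:118309491-118309817), a copy of the acidic nuclear protein prothymosin alpha, had 3.20 FPKM in input and 49.1 FPKM in the RIP of HT-29. That is 5 and 48 fragments, a fold of 15.3 (6.14 to 49.4), with a q of 0.0257 in the authors' deposited table. For the parent PTMA the listed transcript was at 2.06 and 3.15 FPKM, below the copy in level and in ratio. Any PTMA transcript not selected as higher in the RIP is missing from the listed values, so copy and gene cannot be ranked. HIST1H2BPS3 (chr13:22057973-22058313), a histone H2B copy, was at 0 and 13.2 FPKM in HT-29, at least 7.48-fold.

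HMGB1P14, a copy of the DNA-bending protein HMGB1, was listed in both lines with different spans. It had 0.290 FPKM in input and 2.87 FPKM in the RIP of HT-29, and 0.382 and 2.25 in CaCo-2. These values rest on 1 and 6 fragments in HT-29 and on 2 and 11 in CaCo-2. The folds were 9.90 (1.20 to 455) and 5.90 (1.29 to 54.8). SETP14, a copy of the histone chaperone SET, was at 4.42 and 9.30 FPKM in HT-29, a fold of 2.10 (1.28 to 3.49).

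Among metabolic families, 5 of 6 glycolysis copies and 7 of 8 respiratory chain copies reached 2-fold in HT-29, beside 56% of all listed transcripts. Input was at 0 for 4 of the 5 and 7 of the 7, and with 1 FPKM in both libraries 0 of 1 copy in each family reached 2-fold. GAPDHP63 (chr6:80662722-80663728) had 0 FPKM in input and 3.61 FPKM in the RIP, from 18 fragments, at least 10.1-fold. The highest of 2 listed transcripts of its parent GAPDH, a glycolytic dehydrogenase, was at 34.8 and 104 FPKM. TPI1P1, a copy of triosephosphate isomerase, was at 3.98 and 6.34 FPKM, and its fold of 1.596 has an interval of 0.848 to 2.995. Of the respiratory chain copies, COX6CP10 and COX6CP2 rested on 1 RIP fragment each. In CaCo-2, 0 of 3 respiratory chain copies reached 2-fold.

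MTATP6P1 is a nuclear copy of mitochondrial DNA that holds the ATP synthase subunit 6 gene. It was at 2.75 FPKM in input and 10.1 FPKM in the RIP of HT-29 and at 2.95 and 5.25 in CaCo-2. Proteasome and ubiquitin copies reached 2-fold for 5 of 6 in HT-29, 4 of them with input at 0. Among these UBBP1, a copy of polyubiquitin B, had 0 and 3.27 FPKM, at least 3.29-fold. UBE2SP1, a copy of a ubiquitin-conjugating enzyme, was at 7.44 and 12.7 FPKM, a fold of 1.71 (1.06 to 2.76).

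Cytoskeleton copies reached 2-fold for 4 of 7 in HT-29 (3 with input at 0) and, in CaCo-2, 2 of 6 (1 with input at 0). POTEKP, a POTE gene of the branch that carries an actin domain, was at 0.278 FPKM in input and 2.35 FPKM in the RIP of HT-29, with a q of 0.0158 in the authors' deposited table. CFL1P3, a copy of the actin-severing protein cofilin, was at 1.88 and 4.14 FPKM in HT-29, from 6 and 8 fragments, and at 0.00181 and 2.41 in CaCo-2. KRT18P7, a copy of the epithelial keratin KRT18, was at 0.304 and 1.49 FPKM in CaCo-2, a fold of 4.91 (1.62 to 19.95).

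RNA-binding protein copies were at 2-fold for 4 of 6 in HT-29 (2 with input at 0) and, in CaCo-2, 4 of 8 (all 4 with input at 0). SERBP1P6 was at 0.657 FPKM in input and 2.64 FPKM in the RIP of HT-29. HNRNPA1P7, a copy of a splicing regulator, was at 0.690 and 2.46 FPKM, a fold of 3.57 (1.66 to 8.16). SNRPGP18, a copy of a core protein of spliceosomal particles, had the highest RIP level of this family in CaCo-2, 5.99 FPKM from 4 fragments against 0, at least 1.42-fold.

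**Figure D4:**
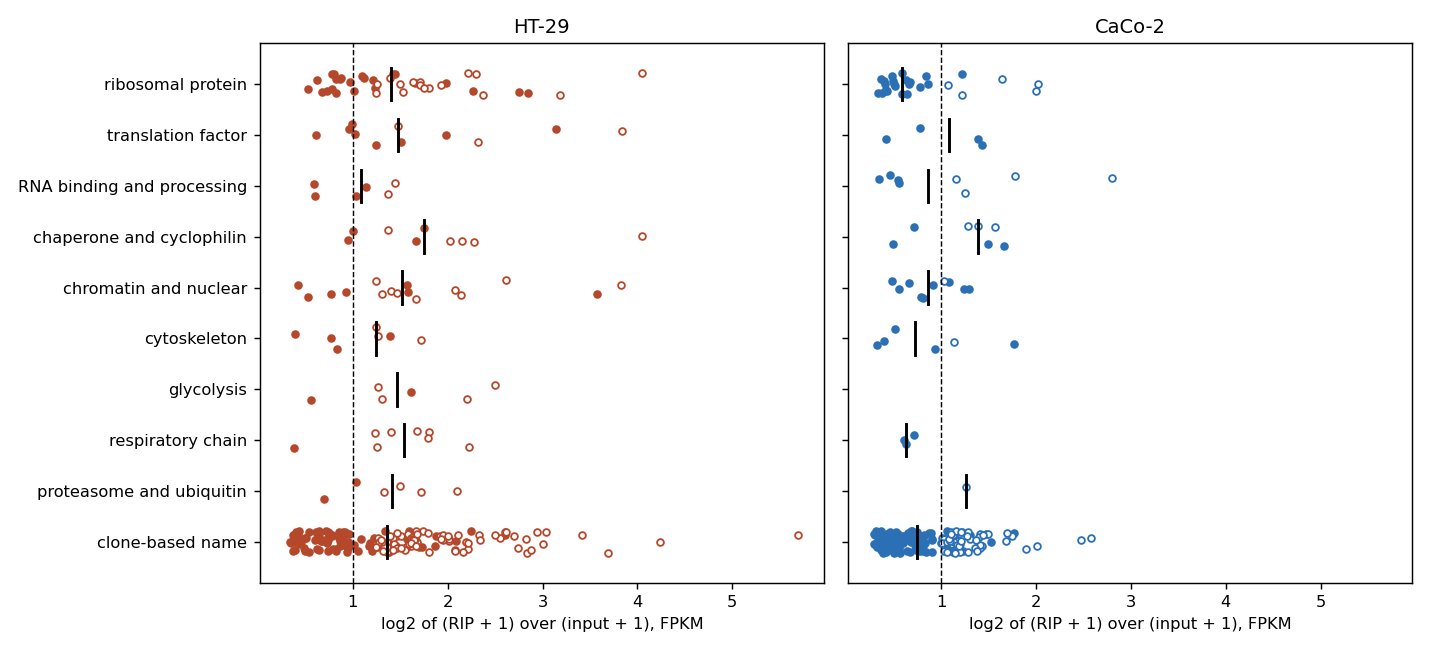
Log2 ratio of RIP to input (horizontal axis) of each pseudogene transcript of 200 nucleotides or more that passed the filter, by family of its parent gene (vertical axis) and line. Open points have input listed at 0, bars are medians and the dashed line is 2-fold. Ribosomal protein copies lie mostly above the line in HT-29, 28 of 40, and mostly below it in CaCo-2, 21 of 27.

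Clone-named pseudogenes reached 2-fold for 99 of 161 in HT-29 and for 65 of 174 in CaCo-2. In HT-29 they held 6 of the 7 highest RIP levels among those with input above 0, although their median, 2.21 FPKM, was below that of ribosomal protein copies (2.71) and translation-factor copies (5.28). CTD-2328D6.1 (chrX:108297361-108297792) was the highest, with 161 FPKM in input and 311 FPKM in the RIP of HT-29, or 419 and 495 fragments. Its fold was 1.93 (1.69 to 2.21), the narrowest interval relative to its fold among the processed pseudogenes, with a q of 0.00264 in the authors' deposited table. Of the 23 with such a q, it is the 1 that falls short of 2-fold.

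A group of 7 pseudogenes in HT-29 had at least 50 FPKM in the RIP with input above 0, with folds from 1.57 to 3.27. Besides CTD-2328D6.1 and RPS3AP6 they include CTB-63M22.1 at 50.4 FPKM in input and 95.8 FPKM in the RIP, CTD-2287O16.1 at 47.6 and 93.8, and RP11-742N3.1 at 46.9 and 79.1. RP11-175B9.3 (chr1:202440937-202441258) was in this range in both lines, at 49.6 and 93.8 FPKM in HT-29, against 61.4 and 96.6 in CaCo-2. Its folds, 1.89 (1.38 to 2.61) and 1.57 (1.24 to 1.999), have overlapping intervals. Leaving out input at 0 sets aside RP11-214N15.5, which passed 50 FPKM in the RIP as well and is described next.

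Other clone-named pseudogenes had input at 0. RP11-214N15.5 (chr10:114308391-114308631) had 51.0 FPKM in the HT-29 RIP from 25 fragments, at least 12.7-fold. Its locus also holds a listed transcript of VTI1A. CTA-242H14.1 (chr7:25729200-25729579) had 17.9 FPKM, at least 12.4-fold, and KB-1683C8.1 6.17 FPKM, at least 14.5-fold. All 3 are among those with a q at or below 0.05 in the authors' deposited table. With input above 0, RP11-864N7.2 was at 1.76 and 10.7 FPKM in HT-29, a fold of 6.10 (1.94 to 25.3).

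Shares were also taken by position relative to other annotated transcripts. In HT-29, 109 of the 300 lay alone in the locus the authors' table assigns, and 70 of them (64.2%) reached 2-fold, against 124 of 191 (64.9%) in loci with other annotation. In CaCo-2 the counts were 21 of 52 (40.4%) and 81 of 230 (35.2%). A listed transcript of another name shared the locus for 103 pseudogenes in HT-29 and, before the filter, for 172 in CaCo-2. In HT-29 these include ATG12P2 (with ACSL3), AC092573.2 (with CDCA7) and HMGB1P14 (with ACTR10 and PSMA3, among others). The part of reads from such neighbours in the values was not tested. Of the 23 with a q at or below 0.05 in the authors' deposited table, 15 lay alone in their locus.

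Few pseudogenes were listed in both lines. By name there were 37, of which 34 were the same transcript in both tables and 3 (HMGB1P14, PTGES3P1 and SBDSP1) were different transcripts. The 34 are 10.7% of the pseudogene transcripts in HT-29 and 8.99% of those in CaCo-2, whereas 1928 of all transcripts were shared, 19.5% and 16.1%. Among the 32 of these that passed the filter in both lines, 7 were at 2-fold in both, beside 30% of all transcripts matched in the same way. Through different transcripts HMGB1P14 and PTGES3P1 were also at 2-fold in both lines, which makes 9 names. Of the 7 shared transcripts with at least 1 FPKM in all 4 libraries, 0 were at 2-fold in both lines. The share of all transcripts in both lines at this filter was not taken. Per line it was 25.2% in HT-29 and 13.1% in CaCo-2, so a count of 0 among 7 says little about pseudogenes. Readable parents numbered 108 and 107, of which 38 occurred in both lines (35.2% and 35.5%), and 75 (69.4%) and 71 (66.4%) had a listed transcript of their own.

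EEF1A1P13 had the best covered values of the 7, with 58 RIP fragments in HT-29 and 23 in CaCo-2. In CaCo-2 it was at 0.00930 FPKM in input and 1.64 FPKM in the RIP. HMGN2P38, a copy of a nucleosome-binding protein, was at 0 and 3.21 FPKM in HT-29, against 0.771 and 3.35 in CaCo-2, from 2 and 4 RIP fragments. ATG12P2, a copy of a ubiquitin-like autophagy protein, was at 0.409 and 2.001 FPKM in HT-29, against 0.317 and 2.08 in CaCo-2. Its RIP fragments numbered 3 and 6, against 1 in each input.

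RP11-83J16.1 was at 1.38 and 7.71 FPKM in HT-29, against 0 and 1.15 in CaCo-2, and RP11-123C21.1 had input 0 in both lines with 6.38 and 1.66 FPKM in the RIPs. AC092573.2 was also at input 0 in both, with 1.99 and 1.04 FPKM. The last of the 7, RP11-731D1.3, spans 163 nucleotides and had 8.35 and 4.35 FPKM against 0. Apart from EEF1A1P13, the processed copies among the 7 rest on 7 RIP fragments or fewer in each line.

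**Figure D5:**
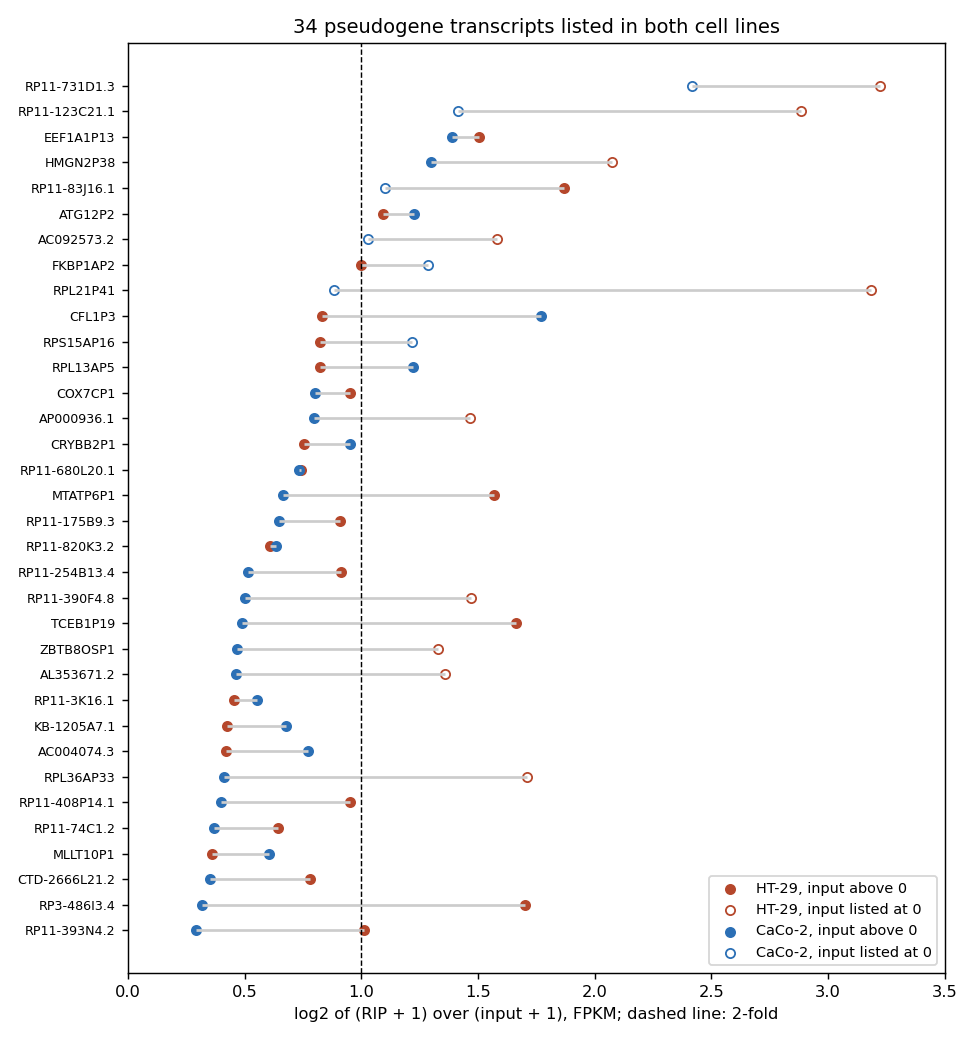
Log2 ratio of RIP to input in HT-29 (red) and CaCo-2 (blue) for the 34 pseudogene transcripts listed in both lines, 1 row per transcript, ordered by the lower ratio. Open points have input listed at 0 and the dashed line is 2-fold. The ratio is the higher in HT-29 for 23 transcripts and in CaCo-2 for 11.

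Pseudogene transcripts under 200 nucleotides had higher RIP levels and nearly always input at 0. At such spans few fragment positions exist, so 1 fragment gives a large FPKM. In HT-29, 17 of 19 had input 0, with RIP levels from 3.71 to 209 FPKM and a median of 11.7. In CaCo-2 it was 28 of 30, from 2.12 to 25.4 FPKM with a median of 4.04. All with input 0 were at 2-fold, which their RIP levels above 1 FPKM fix by construction. Those with input above 0, 2 in each line, were not, on the ratio with 1 FPKM added. Without that addition COX7CP1, 1 of these in both lines, had a fold of 2.09 in HT-29, from 5.94 and 12.4 FPKM.

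RP11-40C6.2 had signal on both sides in HT-29, 108 FPKM in input and 209 FPKM in the RIP. CTD-2194M22.1, AL354808.1, EIF4A1P12 and AC007000.11 had 97.4, 87.2, 38.9 and 26.5 FPKM in the HT-29 RIP against 0. EIF4A1P12 is a copy of the RNA helicase of translation initiation. In CaCo-2 the highest, all against 0, were AC069200.1 at 25.4 FPKM, RP11-507F16.1 at 22.1, RP11-408I18.9 at 18.2, AC061975.9 at 13.6 and AC090519.7 at 9.26. The authors' deposited table gives q values above 0.05 to each of these short transcripts. At the edge of this class in HT-29, CICP10 at 198 nucleotides had 3.71 FPKM in the RIP and AC011385.2 at 201 nucleotides 7.03, both against 0. In CaCo-2, AC002542.2 at 193 nucleotides had 2.12 FPKM against 0 and AL591516.5 at 202 nucleotides 5.42 against 3.40.

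As a check on the labelled cell type, the HT-29 table held 7 of 12 colon epithelial markers and that of CaCo-2 5 of 12, with CDH1, KRT8, KRT18, KRT19 and LGALS4 in both. None of the 10 immune, stromal and endothelial markers was listed. A gene that is not listed is one that was not selected as higher in the RIP, which does not show that it is absent.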

How the data were processed

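RNA of 4 libraries, a beta-catenin RIP and an input in each of HT-29 and CaCo-2, was sequenced. The submitters' processing notes list Cuffdiff, Cufflinks, TopHat2 2.0.8, Bowtie2 and CASAVA 1.4, on build hg19. The authors deposited FPKM values per transcript for RIP and input, together with Cuffdiff p-values and q-values, which are quoted as theirs. Starts in the tables count from 0 and are printed from 1. The number of per-sample columns left unmapped was 0.

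Ratios were taken after adding a pseudocount of 1 FPKM, which understates those of low transcripts. Fragments were estimated with Python 3.11.15 and scipy 1.17.1 by fitting 1 library size and 1 normal fragment-length distribution per library to processed pseudogenes of even span, and checked on odd spans. The fitted sizes are on the authors' normalised scale and are not read totals. The fit was tested on simulated data. Folds between fragment numbers carry exact 95% intervals, which cover counting error only, since PCR copies are not independent molecules. A bound against input 0 uses 3 input fragments and leaves out counting error in the RIP.

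Members and gene lists were chosen with earlier results of these data known. Named were, per line, the 10 highest ratios with 1 FPKM in both libraries, the 5 highest with input 0, the 5 highest RIP levels, and those with an authors' q at or below 0.05 (the 10 lowest where more). Also named were those at 2-fold in both lines, up to 3 by RIP level in families of at least 5, parents, and the 5 highest short transcripts per line. A few further names, such as EEF1A1P9, RPL7A copies and transcripts at the edge of a class, were chosen after their values were seen. Names were matched to RefSeq of GRCh38.p14 for 269 of 660. The pseudogenes' own genomic sequence was not analysed here.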

Additional observations from a re-analysis of the deposited data

How the results depend on the processing

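The share at 2-fold and the median log2 ratio depended on how low input values were treated. In HT-29 the share, 64.7%, was 82.0% with a pseudocount of 0.1 FPKM, 74.7% with 0.5, 35.0% without input at 0 and 22.9% with 1 FPKM in both libraries. Its median, 1.34, became 2.94, 1.93, 0.83 and 0.74 in the same order. In CaCo-2 the share, 36.2%, became 66.0%, 48.2%, 12.6% and 10.3%, and the median, 0.74, became 1.28, 0.93, 0.60 and 0.57. Without a filter the CaCo-2 share was 29.3%, over 348 transcripts instead of 282. A minimum of 10 RIP fragments, chosen after seeing the data, gave medians of 1.505 and 0.58 and a CaCo-2 share of 11.8%. The count at 2-fold in both lines, 6 at 200 nucleotides or more, was 13 with a pseudocount of 0.1, 2 without input at 0, 0 of 6 with 1 FPKM in both libraries, and 1 of 4 with at least 10 fragments. In 21 of 45 comparisons with an alternative, among them every one with short spans included, 1 transcript per name or processed classes only, the value stayed within the main value's 95% interval or, for the count, within 1.5 times it. No paired analysis was possible because each group has 1 library. Depth limits most members: with a median of 5 or 6 RIP fragments, an input of 0 gives a lower bound on the fold and no more.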
